A study of Mus musculus with 6 samples.

Results

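Genes of cholesterol synthesis and transport were followed in cultured mouse retinal ganglion cells (RGCs), the neurons whose axons form the optic nerve. The list held 32 genes, chosen by mouse symbol for what their proteins do, with earlier results of these data known. It comprised 19 enzymes of the synthesis pathway, 5 genes of the SREBP system that senses sterols, 5 genes of uptake and movement in the cell, and 3 genes of efflux. All 32 were among the 43346 Ensembl mouse genes in the deposited tables, and all 32 were among the 15747 genes that passed the filter on low counts and were tested.

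RNA was sequenced from 3 groups of RGCs with 2 libraries each. Control cells received an AAV for EGFP alone, Sox11 cells an AAV for wild-type Sox11 and EGFP, and Sox11K91A cells an AAV for EGFP and a Sox11 whose lysine at residue 91, a site of SUMOylation, is replaced by alanine. All groups were selected with CD90.1 by immunopanning and grown with forskolin, BDNF and CNTF, and a well held 250000 cells. AAV was added 4 h after plating at about 100000 vector genomes per cell, and RNA was taken 72 h after plating. The age of the cells is given as embryonic day 18 for the RNA-seq, as postnatal day 2 in the general culture protocol and as postnatal day 0 in the names of the tables. The promoter of the AAVs is not given in the sources used here, nor is the share of cells in these libraries that carried virus. No source states that replicates came from separate cultures, so p-values measure only the spread between these libraries. Whether that spread is technical was not tested, and the replicates of control and of Sox11 differed in Xist and Eif2s3y, as given below.

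Library totals ranged from 27521982 to 37061718 expected counts. Levels are given as CPM, the count of a gene scaled to the TMM library size. Sox11 was at 234 and 332 CPM in control, at 9178 and 14590 in Sox11 and at 11970 and 7026 in Sox11K91A, where reads of the AAV and of the cell's own gene cannot be told apart. All 10 RGC markers examined were above 1 CPM in every library, and their summed level was 11520 and 11090 CPM in control and between 5110 and 8087 CPM in the other libraries. Nefl made up most of that sum, at 7086 and 6345 CPM in control, 4104 and 2188 in Sox11 and 3096 and 4328 in Sox11K91A. Of the 10 markers, 3 were called lower with Sox11 (Nefl, Thy1 and Slc17a6) and 1 with Sox11K91A (Slc17a6), where 10.2% and 4.81% of all genes tested were. A call means an FDR under 0.05 and a fold change above 1.2 by limma-voom. The median log2 fold changes of the 10 markers were -0.226 and -0.2. Of the 10 astrocyte and Müller glia markers, Gfap was at 0 in every library and the sum, mostly Glul and Vim, was 234 and 299.9 CPM in control and 474 to 499.7 CPM in the others. Of the 8 that were tested, 5 were below 0 with Sox11 and 4 with Sox11K91A (medians -0.978 and -0.439), Glul was called higher in both comparisons, and S100b was called lower with Sox11. The 8 microglial markers summed to between 0.362 and 2.05 CPM, 7 of the oligodendrocyte lineage to between 40.3 and 52.2, and 6 of endothelial cells and pericytes to between 4.70 and 11.6. The 8 photoreceptor and bipolar cell markers summed to 108.4 and 91.1 CPM in control and to between 40.3 and 61.6 in the others. The part of these cell type markers in the results was not tested. On the second principal component, control replicate 2 and Sox11 replicate 2 were at -51 and -50.3, and the other libraries at 20.7 to 30.4. The same pair held less Xist, 95.9 and 254 CPM against 400.4 to 526, and more of the Y-linked Eif2s3y, 25.1 and 33.9 CPM against 7.66 to 12.6. It also held less of the 6 amacrine cell markers, whose sum was 23.1 and 14.7 CPM against 46.9 to 79.2, with Gad1 at 2.83 and 2.23 CPM against 17.2 to 36.2. Counts of members called and medians are given with and without these libraries.

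Cholesterol is made from acetyl-CoA through mevalonate to squalene, which is closed into a ring and trimmed to the sterol. When sterols in the endoplasmic reticulum are scarce, SCAP carries the SREBP transcription factors to the Golgi, where they are cut and released to switch on genes of synthesis and uptake, and INSIG proteins hold SCAP back when sterols are plentiful. LXR receptors, which bind oxysterols, switch on efflux genes such as Abca1 and Abcg1. Neurons both make cholesterol and take it up from glial lipoproteins that carry ApoE, and growing axons need it for new membrane.

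Compared with control, the genes that passed the test were all lower. Whether the steps of the pathway that passed differ from those that did not was not tested. Sox11 downregulated 8 of the 32 genes, namely Mvk, Pmvk, Mvd, Hsd17b7, Ebp, Srebf1, Insig1 and Stard4, where 10.2% of all genes tested were downregulated (limma-voom, FDR under 0.05 and a fold change above 1.2). Sox11K91A downregulated 7, which were these genes without Srebf1, where 4.81% of all genes tested were downregulated. Both comparisons use the same control libraries, so the shared names are not independent. Counted in either direction, 25.0% of the 32 were called with Sox11 and 21.9% with Sox11K91A, where 20.1% and 10.6% of all genes were. No member was upregulated by limma-voom, against 9.96% of all genes with Sox11 and 5.81% with Sox11K91A, and edgeR called 0 in both comparisons while DESeq2 called 2 with Sox11 and 1 with Sox11K91A. The unadjusted p was under 0.05 for 14 members with Sox11 and for 15 with Sox11K91A, in either direction, as it was for 5985 and 4817 of the 15747 genes tested. Without control replicate 2 and Sox11 replicate 2, 5 members were called lower and 1 higher with Sox11, where 858 and 772 of all genes were, and 10 lower and 2 higher with Sox11K91A, where 2184 and 1687 were. Over the 32 genes the median log2 fold change was -0.276 with Sox11 and -0.449 with Sox11K91A, and over all genes tested it was 0.009 and 0.017. Single libraries moved these medians. With Sox11 the median was 0.009, with 16 genes below 0 and 16 above, without Sox11 replicate 1, -0.536 without Sox11 replicate 2, -0.458 without control replicate 1 and -0.113 without control replicate 2. With Sox11K91A it was -0.62 without control replicate 1, -0.258 without control replicate 2, and -0.397 and -0.505 without Sox11K91A replicates 1 and 2. In bulk libraries such as these, fewer cells of a type and less RNA per cell cannot be told apart.

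**Figure D1:**
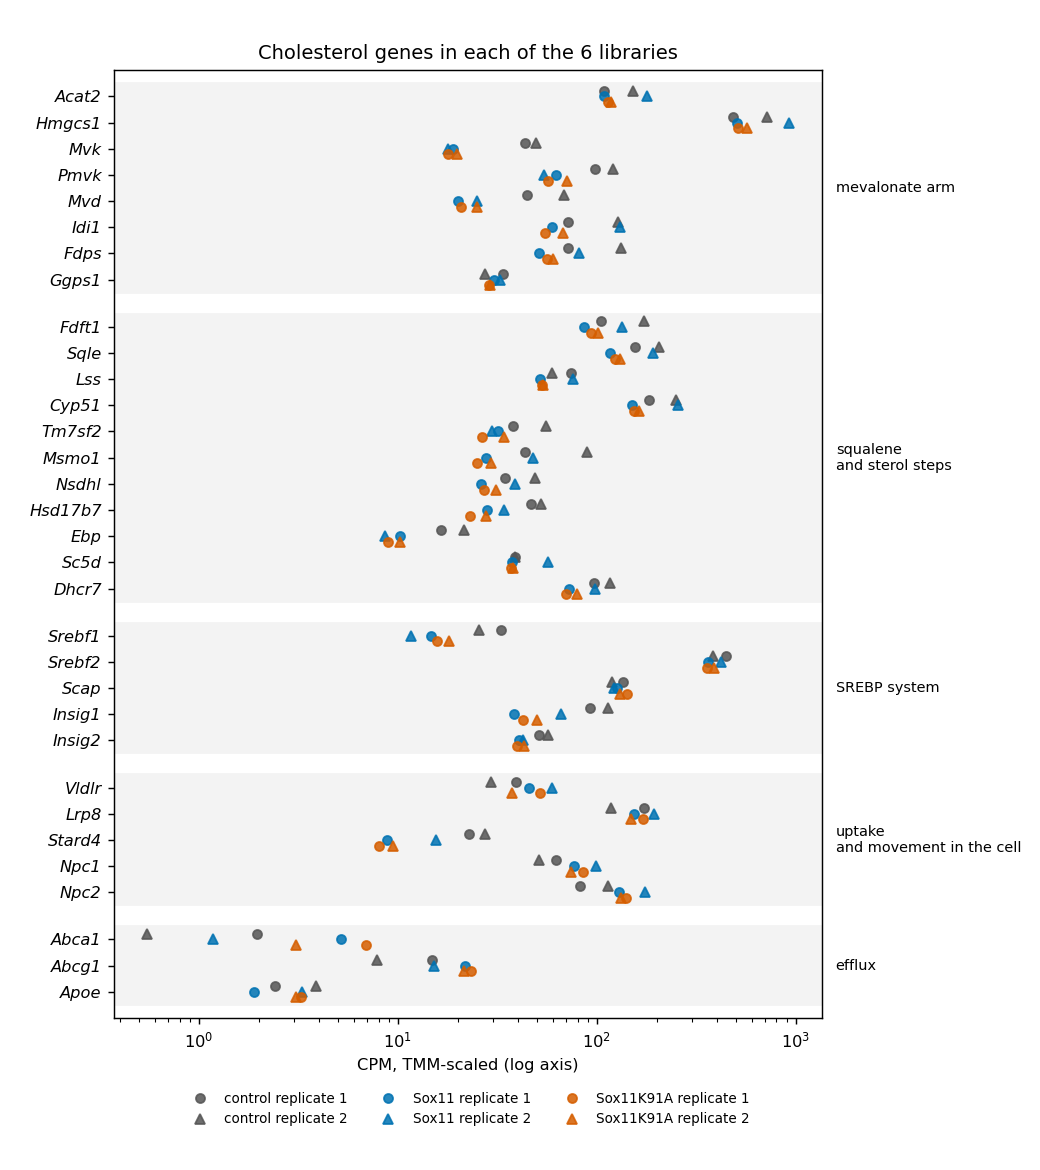
CPM of each of the 32 cholesterol genes in each of the 6 libraries on a log axis, with genes in rows by role, circles for replicate 1 and triangles for replicate 2. For Mvk, Pmvk, Mvd, Hsd17b7, Ebp and Insig1 both control points lie to the right of the 4 points of the AAV groups that carry Sox11, whereas for Hmgcs1 the points of the 3 groups are mixed.

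**Figure D2:**
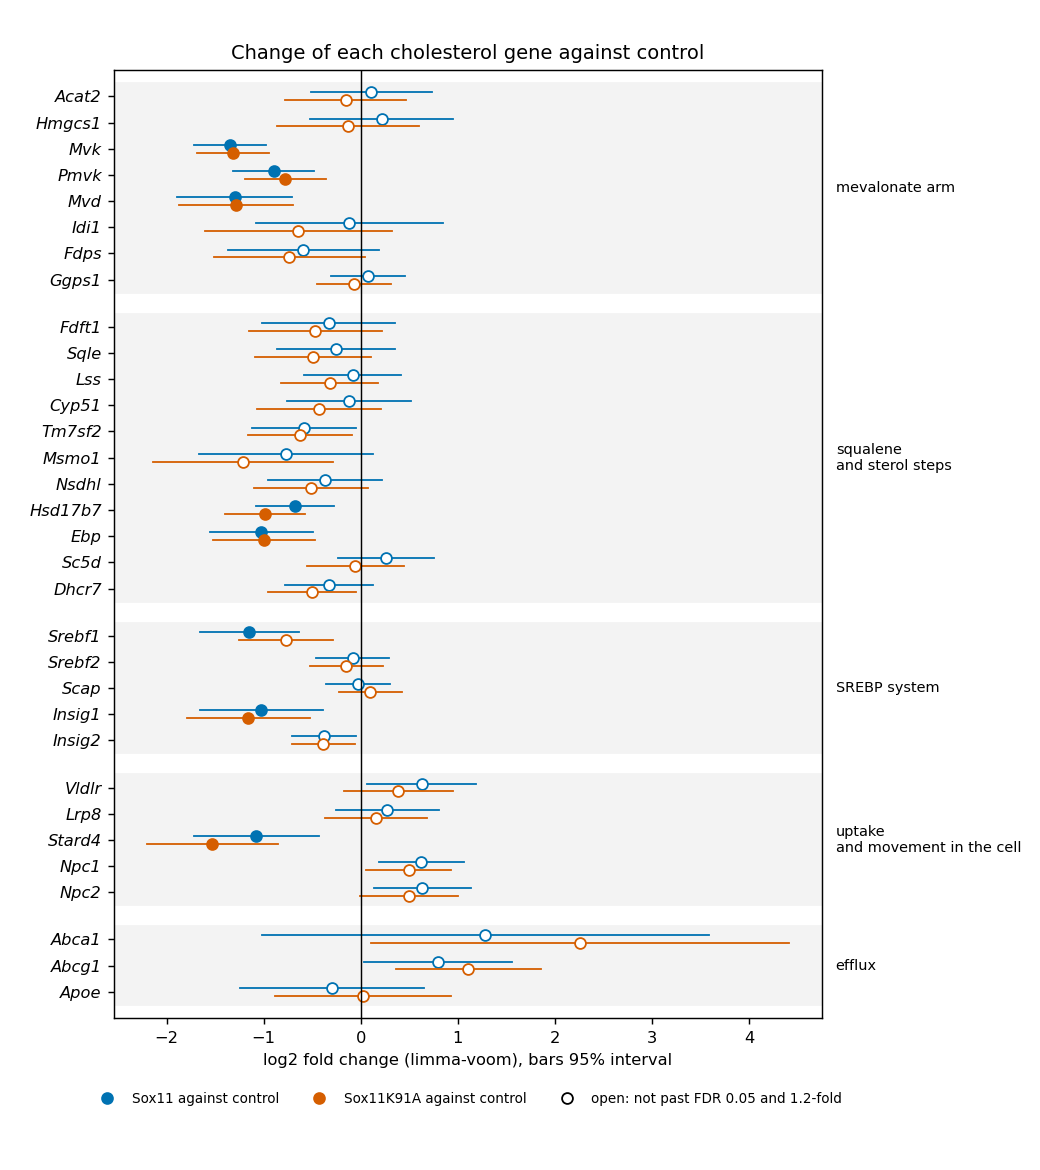
Log2 fold change of each of the 32 genes against control from limma-voom, with 95% intervals as bars and filled points for genes past FDR 0.05 and 1.2-fold. Filled points lie to the left of 0 in every case, 8 for Sox11 and 7 for Sox11K91A.

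Of the 8 enzymes from acetyl-CoA to the prenyl diphosphates, 3 were downregulated in both comparisons, where 10.2% and 4.81% of all genes were. These 3 phosphorylate and decarboxylate mevalonate. Mevalonate kinase (Mvk, ENSMUSG00000041939.10, chr5:114444269-114460591, plus strand, GRCm38), which adds the first phosphate, was at 43.6 and 49.7 CPM in control, at 18.9 and 17.9 in Sox11 and at 17.8 and 19.8 in Sox11K91A. The 4 libraries with Sox11 or Sox11K91A lay close together and well below both control libraries. Mvk fell by 1.35 ± 0.16 (SE, n = 2 per group) on the log2 scale with Sox11, which is 2.54-fold (adjusted p = 0.0112, limma-voom), and by 1.31 ± 0.16 with Sox11K91A, which is 2.49-fold (adjusted p = 0.0140).

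Phosphomevalonate kinase (Pmvk, ENSMUSG00000027952.12, chr3:89454541-89469013, plus strand), which adds the second phosphate, was at 98.2 and 120.1 CPM in control, 62.5 and 54.5 in Sox11, and 56.8 and 70.5 in Sox11K91A. It was lower in every library of either Sox11 group than in either control library. Its log2 fold change was -0.90 ± 0.18 (SE) with Sox11 (adjusted p = 0.0207, limma-voom) and -0.78 ± 0.18 with Sox11K91A (adjusted p = 0.0402). Mevalonate diphosphate decarboxylase (Mvd, ENSMUSG00000006517.4, chr8:122433601-122443422, minus strand), the enzyme that yields isopentenyl diphosphate, was at 44.5 and 68.5 CPM in control, 20.1 and 25.1 in Sox11, and 20.8 and 24.9 in Sox11K91A. Here the control libraries differed more from each other than the 4 others did, and the groups did not overlap. Mvd fell by 1.30 ± 0.25 with Sox11 (2.46-fold, adjusted p = 0.0195, limma-voom) and by 1.29 ± 0.25 with Sox11K91A (2.44-fold, adjusted p = 0.0285).

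The other 5 enzymes of this arm did not pass the test. Hmgcs1, the synthase that makes HMG-CoA, was at 485.5 and 719.5 CPM in control, 507.9 and 930.4 in Sox11, and 511.5 and 568.1 in Sox11K91A. Its highest value was Sox11 replicate 2 and the groups overlapped, with log2 fold changes of 0.22 ± 0.31 and -0.13 ± 0.31 (SE). Acat2, which joins acetyl-CoA units, ranged from 108.5 to 178.1 CPM over the 6 libraries and overlapped between control and either Sox11 group. Idi1, which turns isopentenyl diphosphate into its isomer, was at 71.5 and 127.5 CPM in control, 59.2 and 130.3 in Sox11, and 55.1 and 67.4 in Sox11K91A. The Sox11 libraries of Idi1 lay on either side of the control libraries, while the Sox11K91A libraries were both lower (log2 fold change -0.65 ± 0.41, adjusted p = 0.330, limma-voom). Fdps, which builds farnesyl diphosphate, had log2 fold changes of -0.59 ± 0.33 and -0.74 ± 0.33 (adjusted p = 0.232 and 0.181, limma-voom). Ggps1, which makes geranylgeranyl diphosphate for protein prenylation, stayed between 27.3 and 33.7 CPM in all libraries.

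In the steps from squalene to cholesterol, 2 of the 11 enzymes were downregulated in each comparison, where 10.2% of all genes were with Sox11 and 4.81% with Sox11K91A. They were Hsd17b7 and Ebp both times, with the same control libraries in both. Hsd17b7 (ENSMUSG00000026675.8, chr1:169949535-169969241, minus strand), the sterol 3-keto reductase of C4 demethylation, was at 46.9 and 52.5 CPM in control, 28.2 and 34.1 in Sox11, and 22.9 and 27.6 in Sox11K91A. The control libraries were highest and the Sox11K91A libraries lowest, with no overlap between the 3 groups. Its log2 fold change was -0.68 ± 0.17 (SE) with Sox11 (adjusted p = 0.0353, limma-voom) and -0.98 ± 0.17 with Sox11K91A (adjusted p = 0.0241). Ebp (ENSMUSG00000031168.10, chrX:8185329-8193512, minus strand), the isomerase that moves the double bond of the sterol ring, was at 16.4 and 21.6 CPM in control, 10.3 and 8.60 in Sox11, and 8.94 and 10.2 in Sox11K91A. The Sox11 and Sox11K91A libraries overlapped each other and all lay below control. Ebp fell by 1.02 ± 0.22 with Sox11 (adjusted p = 0.0262, limma-voom) and by 1.00 ± 0.22 with Sox11K91A (adjusted p = 0.0393).

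Msmo1, the C4-methylsterol oxidase, did not pass, although its difference with Sox11K91A was larger than those of Pmvk, Hsd17b7, Ebp and Insig1. It was at 43.4 and 89.3 CPM in control, 27.7 and 47.5 in Sox11, and 25.0 and 29.3 in Sox11K91A. Control replicate 2 was the highest by far, and Sox11 replicate 2 lay above control replicate 1. The log2 fold change was -0.77 ± 0.38 (SE) with Sox11 (adjusted p = 0.184, limma-voom) and -1.21 ± 0.39 with Sox11K91A (adjusted p = 0.0905). The other 8 enzymes of this arm did not pass in either comparison. They were squalene synthase Fdft1, squalene epoxidase Sqle, lanosterol synthase Lss, the lanosterol demethylase Cyp51, the sterol reductases Tm7sf2 and Dhcr7, the sterol dehydrogenase Nsdhl and the desaturase Sc5d. Their log2 fold changes ranged from -0.59 (Tm7sf2) to 0.26 (Sc5d) with Sox11 and from -0.63 (Tm7sf2) to -0.06 (Sc5d) with Sox11K91A. Squalene epoxidase, a rate-limiting step, was at 155.4 and 205.4 CPM in control, 116.7 and 191.7 in Sox11 and 122.9 and 130.9 in Sox11K91A. Its Sox11 libraries overlapped with control and its Sox11K91A libraries were lower than both.

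Taken over the 19 enzymes, 15 had a log2 fold change below 0 with Sox11 and 19 with Sox11K91A, with medians of -0.331 and -0.514. Both Sox11K91A libraries lay below both control libraries for 16 of the 19 enzymes, where 30.7% of all genes did, and both Sox11 libraries for 6, where 30.6% did. No enzyme lay above control in all libraries of either group, against 31.2% of all genes with Sox11K91A and 30.9% with Sox11. The summed level of the 19 enzymes was 1615 and 2101 TPM (a level scaled by gene length) in control, 1313 and 2047 in Sox11, and 1275 and 1419 in Sox11K91A. The Sox11K91A sums were below both control sums, and Sox11 replicate 2 was close to control replicate 2. Without control replicate 2 and Sox11 replicate 2, 17 enzymes were below 0 with Sox11K91A (median -0.295) and 18 with Sox11 (median -0.403). With 1 library left out, the Sox11 median was -0.097 with 11 enzymes below 0 without Sox11 replicate 1, -0.645 with 18 without Sox11 replicate 2, -0.608 with 16 without control replicate 1, and -0.141 with 13 without control replicate 2. The Sox11K91A median was -0.834 with 18 below 0 without control replicate 1 and -0.30 with 17 without control replicate 2, and all 19 stayed below 0 with any other library left out.

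The SREBP system differed between its genes. Srebf1 (ENSMUSG00000020538.11, chr11:60199089-60222581, minus strand), which encodes SREBP-1, the factor tied most closely to fatty acid synthesis, was at 32.9 and 25.4 CPM in control, 14.6 and 11.6 in Sox11, and 15.8 and 18.04 in Sox11K91A. Both control libraries were higher than the 4 others. Srebf1 fell by 1.15 ± 0.22 on the log2 scale with Sox11 (2.22-fold, adjusted p = 0.0184, limma-voom), and its difference with Sox11K91A was -0.77 ± 0.20 (adjusted p = 0.0574), which did not pass. Its exons overlap those of Rai1 on the other strand and of Mir6922 on the same strand, and the use of strand in counting is not given in the sources used here. Srebf2, which encodes SREBP-2, the main factor for cholesterol genes, was at 446.3 and 382.9 CPM in control, 361.3 and 422.4 in Sox11, and 358.6 and 389.2 in Sox11K91A. These ranges overlapped, and the log2 fold changes were -0.08 ± 0.16 and -0.15 ± 0.16 (adjusted p = 0.733 and 0.578, limma-voom), with 95% intervals of -0.46 to 0.29 and -0.52 to 0.23.

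Insig1 (ENSMUSG00000045294.10, chr5:28071363-28078662, plus strand), which retains SCAP and is itself an SREBP target, was at 92.9 and 114.5 CPM in control, 38.2 and 66.4 in Sox11, and 42.6 and 50.2 in Sox11K91A. Control was higher than every other library, and Sox11 replicate 2 was the nearest to it. Insig1 fell by 1.02 ± 0.27 (SE) with Sox11 (2.04-fold, adjusted p = 0.0392, limma-voom) and by 1.16 ± 0.27 with Sox11K91A (2.23-fold, adjusted p = 0.0416). Insig2, the relative that also retains SCAP, was at 51.1 and 56.7 CPM in control and between 39.6 and 42.9 CPM in the 4 other libraries. The groups of Insig2 did not overlap, but its differences of -0.38 ± 0.14 and -0.39 ± 0.14 did not pass (adjusted p = 0.0936 and 0.114, limma-voom). Scap ranged from 119.0 to 141.8 CPM and overlapped between control and either Sox11 group.

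The promoters of Mvk, Mvd and Insig1 are printed because these were the members with the largest falls among those called in both comparisons that had an entry in the RefSeq promoter table (build GRCm38.p6, 250 bases before to 50 after the start, 5′ to 3′ on the strand of the gene). Stard4, which was also called in both, is named only. They were searched on both strands for the core of the sterol regulatory element (CACNCCA), the NF-Y box (CCAAT) and a Sox motif (ACAAAG), and capitals mark every match. Those of Mvk (chr5:114444019-114444318, plus strand), Mvd (chr8:122443373-122443672, minus strand) and Insig1 (chr5:28071162-28071461, plus strand) read as follows.
Mvk: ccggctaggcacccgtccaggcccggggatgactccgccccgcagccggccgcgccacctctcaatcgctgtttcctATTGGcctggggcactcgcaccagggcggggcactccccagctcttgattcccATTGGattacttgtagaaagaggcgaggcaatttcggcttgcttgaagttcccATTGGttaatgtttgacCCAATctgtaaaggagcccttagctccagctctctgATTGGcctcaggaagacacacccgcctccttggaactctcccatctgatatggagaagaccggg
Mvd: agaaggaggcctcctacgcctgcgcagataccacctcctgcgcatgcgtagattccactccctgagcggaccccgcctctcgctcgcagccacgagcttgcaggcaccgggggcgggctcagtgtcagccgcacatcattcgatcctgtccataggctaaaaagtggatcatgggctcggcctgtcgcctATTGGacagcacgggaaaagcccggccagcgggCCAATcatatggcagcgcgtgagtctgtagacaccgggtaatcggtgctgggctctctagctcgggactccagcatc
Insig1: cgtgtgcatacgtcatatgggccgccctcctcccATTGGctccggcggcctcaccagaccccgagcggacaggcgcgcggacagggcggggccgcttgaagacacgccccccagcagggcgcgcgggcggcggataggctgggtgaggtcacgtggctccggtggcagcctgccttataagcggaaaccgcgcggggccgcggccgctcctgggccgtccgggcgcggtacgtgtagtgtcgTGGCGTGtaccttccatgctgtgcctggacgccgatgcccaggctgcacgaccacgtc
Mvk held 5 NF-Y boxes, at 173, 120, 67, 50 and 14 bases before its start, and Mvd held 2, at 60 and 27 bases. Insig1 held 1 NF-Y box 216 bases before its start and 1 match to the sterol element core, read on the opposite strand, 8 bases before it. No matches overlapped, and none of the 3 promoters held the Sox motif. Of the 32 genes, 26 had entries, with 39 promoters in all. The NF-Y box was in 22 of these 39 (56.4%) and in 37.4% of all 32851 promoters in the table, the sterol element core in 8 (20.5%) and 18.4%, and the Sox motif in 7 (17.9%) and 18.7%. A match to these letters is not a measured binding site.

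Genes of uptake and movement in the cell split by gene. Stard4, a soluble carrier of cholesterol between membranes and an SREBP target, was at 22.8 and 27.3 CPM in control, 8.81 and 15.5 in Sox11, and 8.07 and 9.43 in Sox11K91A. Both control libraries were highest, and Sox11 replicate 2 stood between them and the rest. Stard4 fell by 1.07 ± 0.27 (SE) with Sox11 (2.11-fold, adjusted p = 0.0360, limma-voom) and by 1.53 ± 0.29 with Sox11K91A (2.88-fold, adjusted p = 0.0273), the largest fall of the list in that comparison.

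The lysosomal pair that hands cholesterol out of late endosomes went the other way without passing the test. Npc1, the membrane transporter, was at 62.7 and 51.3 CPM in control, 76.5 and 99.1 in Sox11, and 85.4 and 74.4 in Sox11K91A. Npc2, the soluble carrier that feeds it, was at 82.1 and 113.3 CPM in control, 128.7 and 174.1 in Sox11, and 139.9 and 132.1 in Sox11K91A. For both genes every library with Sox11 or Sox11K91A was higher than both control libraries. The log2 fold changes with Sox11 were 0.62 ± 0.18 (SE) for Npc1 and 0.63 ± 0.21 for Npc2 (adjusted p = 0.0557 and 0.0743, limma-voom), and with Sox11K91A 0.49 ± 0.18 and 0.50 ± 0.21 (adjusted p = 0.127 and 0.167). Npc1 exons overlap those of Gm15956 and Rmc1 on the other strand. The lipoprotein receptors Vldlr and Lrp8, which bind ApoE and also reelin, had log2 fold changes of 0.63 ± 0.24 and 0.27 ± 0.22 with Sox11 and of 0.39 ± 0.24 and 0.15 ± 0.22 with Sox11K91A, and neither passed (lowest adjusted p = 0.0999, limma-voom).

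Efflux genes were the lowest of the list in control per gene length, where Abca1 was at 0.10 and 0.39 TPM. The highest was Hmgcs1, at 317 and 429 TPM, above every other member in both control libraries. Abca1, the transporter that loads cholesterol onto apolipoproteins, was at 1.97 and 0.545 CPM in control, 5.17 and 1.18 in Sox11, and 6.89 and 3.09 in Sox11K91A. Replicate 1 was above replicate 2 in every group of Abca1, and of the groups with Sox11 or Sox11K91A the latter alone lay above both control libraries. Its log2 fold change was 2.26 ± 0.91 (SE) with Sox11K91A (95% interval 0.11 to 4.42, adjusted p = 0.147, limma-voom) and 1.28 ± 0.97 with Sox11 (adjusted p = 0.375).

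Abcg1, which moves cholesterol to high-density lipoproteins, was at 14.8 and 7.83 CPM in control, 21.8 and 15.2 in Sox11, and 23.3 and 21.6 in Sox11K91A. The control libraries were lowest, and Sox11 replicate 2 only just above control replicate 1. Its log2 fold change was 0.79 ± 0.32 (SE) with Sox11 (adjusted p = 0.121, limma-voom) and 1.11 ± 0.31 with Sox11K91A (adjusted p = 0.0668). Apoe, the apolipoprotein made mainly by glia, was between 1.89 and 3.87 CPM in all 6 libraries, and its groups overlapped in both comparisons.

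Between Sox11K91A and Sox11, limma-voom called 0 of the 32 genes and 0% of all genes tested. Of the 32, 0 had an unadjusted p under 0.05, and edgeR and DESeq2 also called 0. The difference was 0.03 for Mvk (95% interval -0.38 to 0.44, log2), 0.01 for Mvd (-0.62 to 0.65), -0.13 for Insig1 (-0.77 to 0.51), -0.45 for Stard4 (-1.20 to 0.30) and 0.38 for Srebf1 (-0.16 to 0.93). Each of these intervals holds differences of over 1.2-fold. Srebf1 and Scap were higher in both Sox11K91A libraries than in both Sox11 libraries, Ggps1 and Hsd17b7 were lower, and the other 28 overlapped, where 13.3% of all genes were higher and 13.4% lower without overlap. The median over the 19 enzymes was -0.181, with 15 below 0. Without Sox11 replicate 2 it was 0.042, with 7 below 0. Without Sox11 replicate 1 it was -0.454, with 15 below 0, and 7 enzymes had an unadjusted p under 0.05 by limma-voom, as 1247 of all genes did, with 0 called.

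The replicates of the enzymes differed in a common direction. Replicate 2 was above replicate 1 in both the control and the Sox11 group for 13 of the 19 enzymes, where 28% of all genes tested were, and by over 1.2-fold in both groups for 11 of the 19, where 9.65% were. Over the 19 enzymes the median log2 ratio of replicate 2 to replicate 1 was 0.46 in control, 0.556 in Sox11 and 0.156 in Sox11K91A, and over all genes tested it was 0.001, -0.003 and 0.00. Group by group, replicate 2 was the higher for 17 of the 19 enzymes in control, 15 in Sox11 and all 19 in Sox11K91A, where 50.1%, 49.5% and 50% of all genes were. Idi1 had the widest gap in Sox11, at 1.14 on the log2 scale, and Msmo1 in control, at 1.04. Mvk, Pmvk and Ebp, which were called in both comparisons, were slightly lower in Sox11 replicate 2 than in replicate 1, at -0.08, -0.20 and -0.26. The control and Sox11 replicates 2 are the libraries that differed in Xist, Eif2s3y and Gad1, and the part of those differences in the enzyme levels was not tested.

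**Figure D3:**
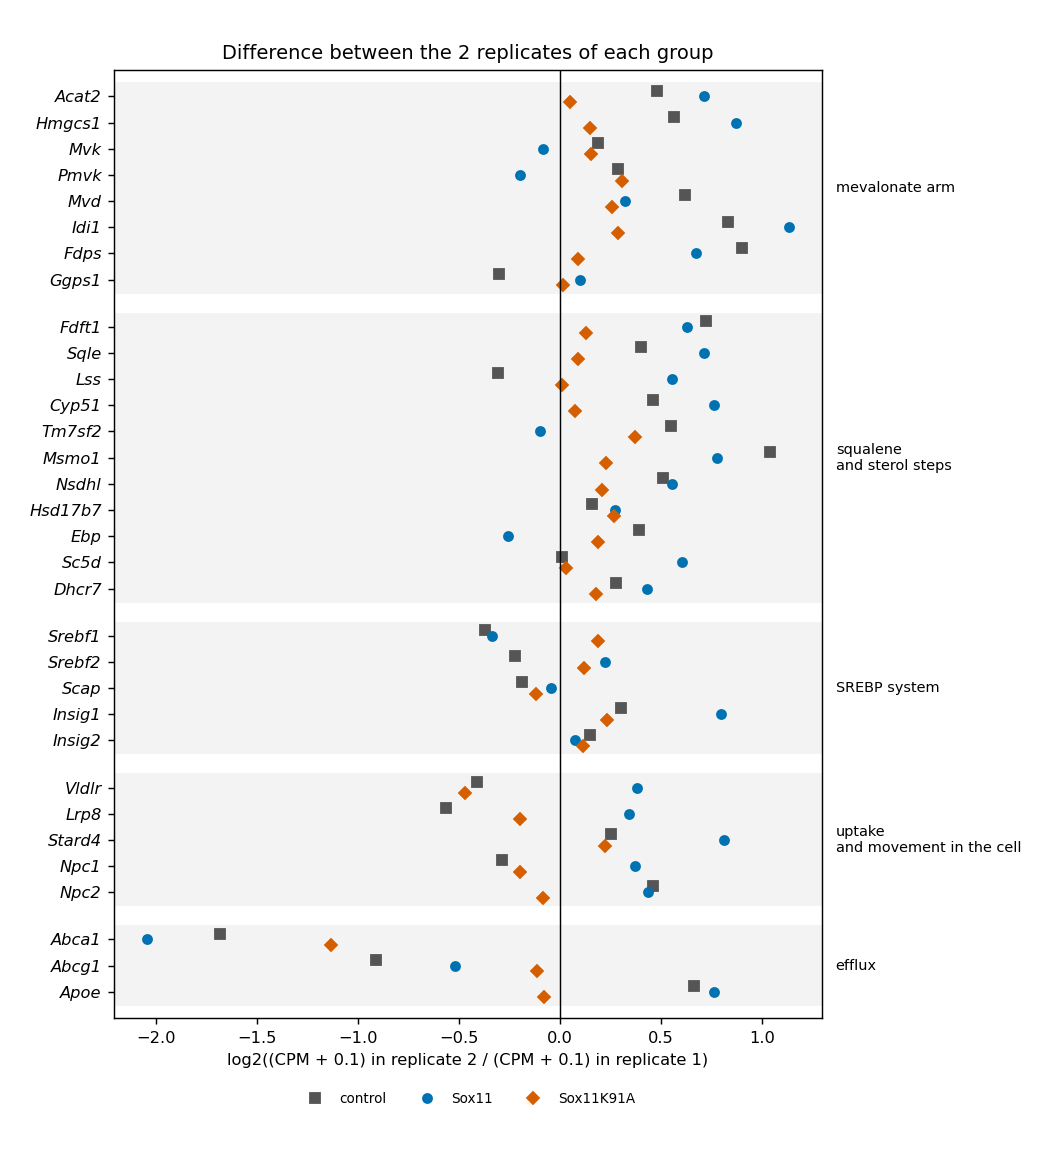
Log2 ratio of CPM (with 0.1 CPM added) in replicate 2 to replicate 1 of each group, for each of the 32 genes. Most points of the 19 enzymes lie to the right of 0, with medians of 0.46 in control, 0.556 in Sox11 and 0.156 in Sox11K91A, and Abca1 lies to the left at -1.68, -2.04 and -1.13.

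Calls depended on single libraries. The direction of the called genes did not, but for each of them both control libraries lay above both libraries of the other group. Leaving out a single library could therefore not reverse it. Leaving out each of the 6 libraries in turn left between 0 and 11 members lower with Sox11 and between 0 and 10 with Sox11K91A. With Sox11 the count was 11 without control replicate 1, 3 without control replicate 2, 4 without Sox11 replicate 1 and 4 without either Sox11K91A library, where 1813, 1006, 1571, 790 and 775 of the 15747 genes tested were called lower. Without Sox11 replicate 2 limma-voom called 0 members and 0 of all genes, and 14 members and 3349 of all genes had an unadjusted p under 0.05. With Sox11K91A the count was 10 without control replicate 1 and 6 without either Sox11 library, where 1122, 848 and 847 of all genes were called lower. Without control replicate 2, Sox11K91A replicate 1 or Sox11K91A replicate 2, limma-voom called 0 members lower with Sox11K91A, and 0, 0 and 38 of all genes. In these 3 fits 9, 8 and 12 members had an unadjusted p under 0.05, as 4703, 1915 and 3226 of all genes did. The log2 fold change of Mvk stayed between -1.44 and -1.25 with Sox11 and between -1.41 and -1.22 with Sox11K91A, and that of Mvd between -1.60 and -0.98 with Sox11 and between -1.59 and -0.98 with Sox11K91A. Mvk and Mvd were also called under all 13 other settings tried in each comparison. Each of the other called members lost its call under 2 to 5 of the 13.

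Other genes of sterol and lipid metabolism were drawn from 5 lists with 74 genes, of which 73 were tested. Sox11 upregulated 9 and downregulated 11 of them, and Sox11K91A upregulated 5 and downregulated 6, with medians of -0.062 and -0.041. In either direction these were 27.4% and 15.1% of the 73, where 20.1% and 10.6% of all genes were called. Among 14 genes of fatty acid synthesis that SREBP-1 drives, Sox11 upregulated 1 and downregulated 4, and Sox11K91A upregulated 1 and downregulated 3, which is 35.7% and 28.6% of the list in either direction. Lpin1, a phosphatidate phosphatase, rose from 26.01 and 27.2 CPM in control to 54.1 and 67.5 in Sox11 and 64.0 and 53.6 in Sox11K91A (log2 fold changes 1.18 ± 0.18 and 1.14 ± 0.18, adjusted p = 0.0128 and 0.0199, limma-voom). Elovl6, a fatty acid elongase, went the other way and fell by 0.81 ± 0.16 and 0.98 ± 0.16 (adjusted p = 0.0206 and 0.0207). Mid1ip1, which aids acetyl-CoA carboxylase, fell by 0.94 ± 0.23 with Sox11 (adjusted p = 0.0335), and was at -0.67 ± 0.23 with Sox11K91A (adjusted p = 0.103).

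**Figure D4:**
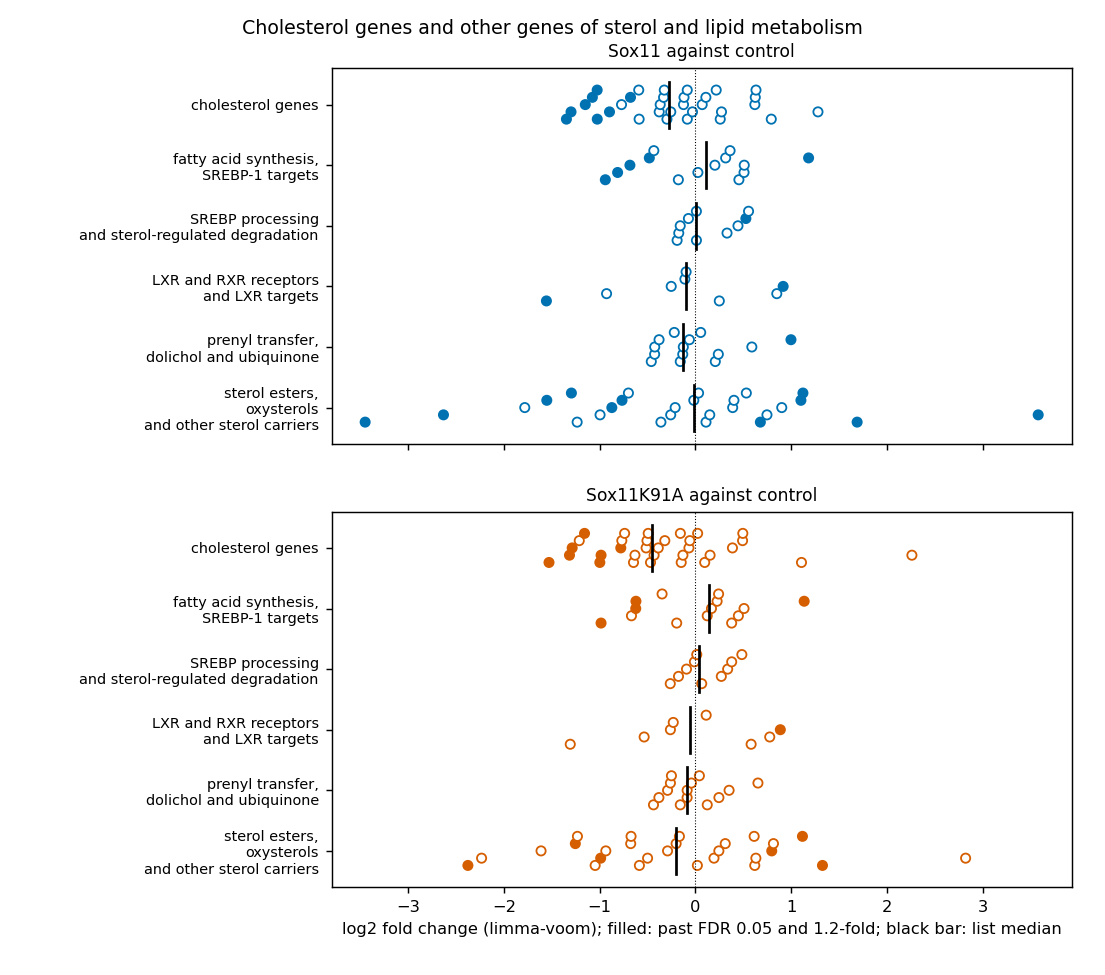
Log2 fold change against control from limma-voom for the 32 cholesterol genes and for the 5 other lists, with Sox11 above and Sox11K91A below, filled points for genes past FDR 0.05 and 1.2-fold, and a black bar at each median. The cholesterol genes have medians of -0.276 and -0.449 and filled points on the left alone, while the sterol ester and oxysterol list has filled points on both sides.

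Among 10 genes of SREBP processing and sterol-regulated degradation, 1 was upregulated by Sox11 and 0 by Sox11K91A. In either direction 10% and 0% were called, where 20.1% and 10.6% of all genes were. With Sox11K91A, 1 had an unadjusted p under 0.05 by limma-voom. The gene called with Sox11 was Erlin2, part of a complex that tags sterol-regulated proteins for degradation (log2 fold change 0.53 ± 0.15, adjusted p = 0.0494, limma-voom). Of 8 LXR and RXR receptors and LXR targets, Arl4c rose in both comparisons, by 0.92 ± 0.17 and 0.89 ± 0.17 (adjusted p = 0.0175 and 0.0273). Mylip, an LXR target whose product degrades lipoprotein receptors, fell by 1.56 ± 0.38 with Sox11 (adjusted p = 0.0326) and was at -1.31 ± 0.36 with Sox11K91A (adjusted p = 0.0624). With Sox11 these LXR targets thus went opposite ways. The genes called were 25% of this list with Sox11 and 12.5% with Sox11K91A. Of 14 genes that use or transfer prenyl groups, Sox11 upregulated 1 (7.14%), Chml, a Rab escort protein (1.00 ± 0.23, adjusted p = 0.0285, limma-voom). With Sox11K91A 0 were called and 3 had an unadjusted p under 0.05 by limma-voom.

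The list of sterol esters, oxysterols and other carriers had 27 genes tested, of which Sox11 upregulated 5 and downregulated 6, and Sox11K91A upregulated 3 and downregulated 3, which is 40.7% and 22.2% against 20.1% and 10.6% of all genes. Apod, a lipid-binding apolipoprotein, was at 0.143 and 0.467 CPM in control, 2.55 and 4.62 in Sox11, and 2.23 and 1.89 in Sox11K91A, and it rose by 3.58 ± 0.71 with Sox11 (adjusted p = 0.0207, limma-voom). Lpl, lipoprotein lipase, was at 14.9 and 18.6 CPM in control and between 1.93 and 4.80 CPM in the other libraries, and it fell by 2.63 ± 0.43 and 2.38 ± 0.41 (adjusted p = 0.0142 and 0.0233). Cyp7b1, an oxysterol hydroxylase, fell by 3.45 ± 0.86 with Sox11 from 2.22 and 2.26 CPM in control to 0.619 and 0.0603 CPM (adjusted p = 0.0350). With Sox11K91A it was at 0.931 and 0.549 CPM and did not pass (adjusted p = 0.141).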

How the data were processed

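Expression was measured by RNA-seq in 6 libraries, 2 each of control, Sox11 and Sox11K91A, grouped by the sample titles. The authors aligned reads to mm10 with STAR and used RSEM to make an expected count per gene, an estimated count that the authors deposited without normalization. The authors also deposited RSEM's TPM, which scales each count by gene length and library, and gene lengths. The main tests used neither, and the limma-trend alternatives used TPM. The tool versions, the gene annotation and whether counting used strand are not given in the sources used here. Symbols and gene coordinates, whose counts cover the exons, came from a gene annotation of GRCm38 and promoters from RefSeq (GRCm38.p6).

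Expected counts were rounded, filtered with filterByExpr over the 3 groups and scaled with TMM (factors 0.985 to 1.04). All 6 libraries entered a single limma-voom fit (limma 3.58.1, edgeR 4.0.16, R 4.3.3), with two-sided tests, Benjamini-Hochberg adjustment over 15747 genes, an FDR under 0.05 and a fold change above 1.2. CPM uses the TMM library sizes, and intervals are 95%. The members, the other lists and the motifs were chosen with earlier results of these data known. The text names all 32 members and, in each other list, up to 3 genes with the largest change past the threshold. DESeq2 1.42.0 and edgeR's quasi-likelihood test were among 13 alternatives, beside leaving out each of the 6 libraries. The script was tested on simulated counts. Tables and plots used Python 3.11.15, pandas 2.3.3 and matplotlib 3.10.9. Exons of Hmgcs1, Idi1, Ggps1, Fdft1, Lss, Cyp51, Srebf1, Scap and Npc1 overlap another gene on the other strand, and those of Fdps, Tm7sf2 and Srebf1 on the same strand, so reads of these members may be shared. RSEM's own posterior SD of a member's count was at most 0.672% (Tm7sf2).

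Whether replicate numbers pair the libraries was checked by the correlation of their deviations from the group means, which was 0.229 for control with Sox11, -0.0281 for control with Sox11K91A and -0.234 for Sox11 with Sox11K91A. No label states a shared culture, so the main comparison has no block.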

Additional observations from a re-analysis of the deposited data

How the results depend on the processing

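With 2 libraries a group, the counts of members called depended on the fit. The direction of called members was below 0 under every setting run. Their groups did not overlap with control, so leaving a library out could not reverse it. Over the called members and the 13 settings, 163 calls were kept and 32 lost, and with a single library left out 42 were kept and 48 lost. Of members called lower with Sox11 (8, of 1603 genes in all) there were 3 of 452 with sample quality weights, 4 of 932 and 4 of 820 with limma-trend on log2(TPM + 1) and log2(TPM + 0.1), 4 of 827 in a fit of the 2 groups alone, 5 of 858 without both of control replicate 2 and Sox11 replicate 2, 10 of 2400 with a block that marks this pair, and 0 to 11 with each library left out in turn. With Sox11K91A (7 of 757) there were 4 of 383 and 3 of 317 on the TPM scales, 10 of 2184 without the pair, 9 of 1568 with the block for it, 9 of 1593 by DESeq2, and 0 to 10 with each library left out. A fit of fewer libraries has fewer residual degrees of freedom, and the cause of the differences between settings was not tested for any of them.

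Genes called higher (0 with each) numbered 2 with Sox11 and 1 with Sox11K91A by DESeq2, 2 and 1 with the block for the pair, and 1 and 2 without the pair. With each library left out they numbered 0 to 2 with Sox11 and 0 to 1 with Sox11K91A. When replicate number entered as a block, 8 genes were lower and 0 higher with Sox11, and 7 lower and 2 higher with Sox11K91A. These numbers were not shown to pair the libraries. No member was called between Sox11K91A and Sox11 under any setting.

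Signs changed for members that were not called, where the log2 fold change was small. With Sox11, the values without control replicate 2 and Sox11 replicate 2 were -0.007 for Acat2, -0.142 for Ggps1, -0.042 for Sc5d and -0.17 for Lrp8. On log2(TPM + 1) and log2(TPM + 0.1) they were 0.005 and 0.004 for Idi1, 0.012 and 0.012 for Srebf2, and 0.064 and 0.065 for Scap. With Sox11K91A, a block for the same pair gave 0.14 for Acat2, 0.23 for Hmgcs1 and 0.11 for Sc5d, leaving the pair out gave 0.079 for Acat2, 0.15 for Hmgcs1 and -0.12 for Lrp8, and library size alone gave -0.001 for Apoe.

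With each library left out in turn, the values of uncalled members that changed sign ranged with Sox11 from -0.24 to 0.47 for Acat2, -0.22 to 0.66 for Hmgcs1, -0.68 to 0.45 for Idi1, -0.093 to 0.21 for Ggps1, -0.69 to 0.026 for Fdft1, -0.61 to 0.10 for Sqle, -0.37 to 0.19 for Lss, -0.50 to 0.26 for Cyp51, -0.049 to 0.56 for Sc5d, -0.20 to 0.03 for Srebf2, -0.13 to 0.065 for Scap, -0.008 to 0.56 for Lrp8 and -0.71 to 0.08 for Apoe. With Sox11K91A they ranged from -0.40 to 0.074 for Acat2, -0.42 to 0.14 for Hmgcs1, -0.23 to 0.076 for Ggps1, -0.001 to 0.19 for Scap, -0.13 to 0.44 for Lrp8 and -0.28 to 0.40 for Apoe.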
